A study of Mus musculus with 16 samples.

Results

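The prolactin, STAT5 and hormone receptor genes described here are Prlr, Ghr, Jak2, Stat5a, Stat5b, Elf5, Cish, Socs2, Nr3c1 and Esr1. They were taken as a list of 10 named genes out of 22196 with summed counts, and all 10 passed the filter that left 12506 genes for testing. The tissue was the whole inguinal mammary gland of mice, in mid-lactation by the study title, and every sample carries the age postnatal day 16 (of mother or pups is not said). The 4 groups of 4 libraries were NCD with control treatment, NCD with metformin, HFD with control treatment and HFD with metformin. HFD is a high fat diet given in lactation, and metformin is a common antidiabetic medicine that reduces glucose output by the liver. Neither the meaning of NCD nor the strain is spelled out, and bulk tissue mixes epithelium with fat, stroma and blood cells. Milk genes were high in every group, with group means of 136000 to 176000 CPM (counts scaled to library size) for Csn2, the gene of beta-casein.

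In the lactating gland, prolactin binds its receptor on luminal cells, the receptor activates the kinase JAK2, and JAK2 phosphorylates STAT5, which enters the nucleus and drives milk protein genes. The growth hormone receptor uses the same kinase and STAT5 proteins. CISH and SOCS2 are STAT5 targets that feed back on the receptors. ELF5 is an ETS factor needed for the secretory lineage, while the glucocorticoid receptor acts with STAT5 at milk genes and the oestrogen receptor marks hormone-sensing cells.

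A STAT5 dimer prefers the palindrome TTCNNNGAA, which reads the same on both strands. It was searched in windows of 300 bases, from 250 before to 50 after each RefSeq start on GRCm38.p6, and 8.3% of all 32851 windows held it. Of the 10 genes, 8 had windows, 15 in all, and 3 of these windows held the motif, 1 each for Cish, Prlr and Esr1. These stretches are shown with the motif in capitals, next to those of the milk genes Csn2, Csn1s1 and Glycam1, to let the letters of receptor, feedback and milk genes be compared. The motif of Csn2 begins 93 bases before its start and that of Csn1s1 100 bases before. For Glycam1 it begins 145 bases before the start, for Prlr 110 and for Esr1 188. The RefSeq starts used for Prlr, Esr1 and Cish lie inside the annotated genes, which begin at 10177238, 4611593 and 107296026. Cish held 2 copies, beginning at bases 1 and 12, where base 1 is the start itself. In the list of STAT5 targets used below, 5 of 17 genes with a window held the motif, beside 9.55% of all genes with a window. A match describes letters and is not evidence of binding.
Cish, chr9:107296655-107296682, plus strand: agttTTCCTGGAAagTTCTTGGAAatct
Prlr, chr15:10223786-10223814, plus strand: gcaaaatgagTTCTAGGAAtaagggatat
Esr1, chr10:4709960-4709988, plus strand: ctggagtttcTTCTAGGAAtgctgattct
Csn2, chr5:87699500-87699528, minus strand: tcacgtagacTTCTTGGAAttgaagggac
Csn1s1, chr5:87666098-87666126, plus strand: tttgtaacaaTTCTTAGAAtttatgtaaa
Glycam1, chr15:103565208-103565236, minus strand: gccaactcatTTCCCAGAAacaccaattc

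Depth ran from 8649316 counts in HFD control 4 to 39156617 in NCD metformin 4. A pair of libraries stood apart. NCD control 3 had a summed level of 3540 CPM over 10 skeletal muscle markers, against at most 134 CPM in any other library, and 1220 CPM over 10 adipocyte markers, against 188 to 261 in the other NCD controls. HFD control 4 was the shallowest. Adipocyte markers summed to 427 to 1040 CPM with metformin on NCD. On HFD they summed to 252 to 414 without and 266 to 704 with it. Luminal markers varied less, from 715 to 1000 CPM over all libraries. Fewer cells of a type and less RNA per cell cannot be told apart in such samples.

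**Figure D1:**
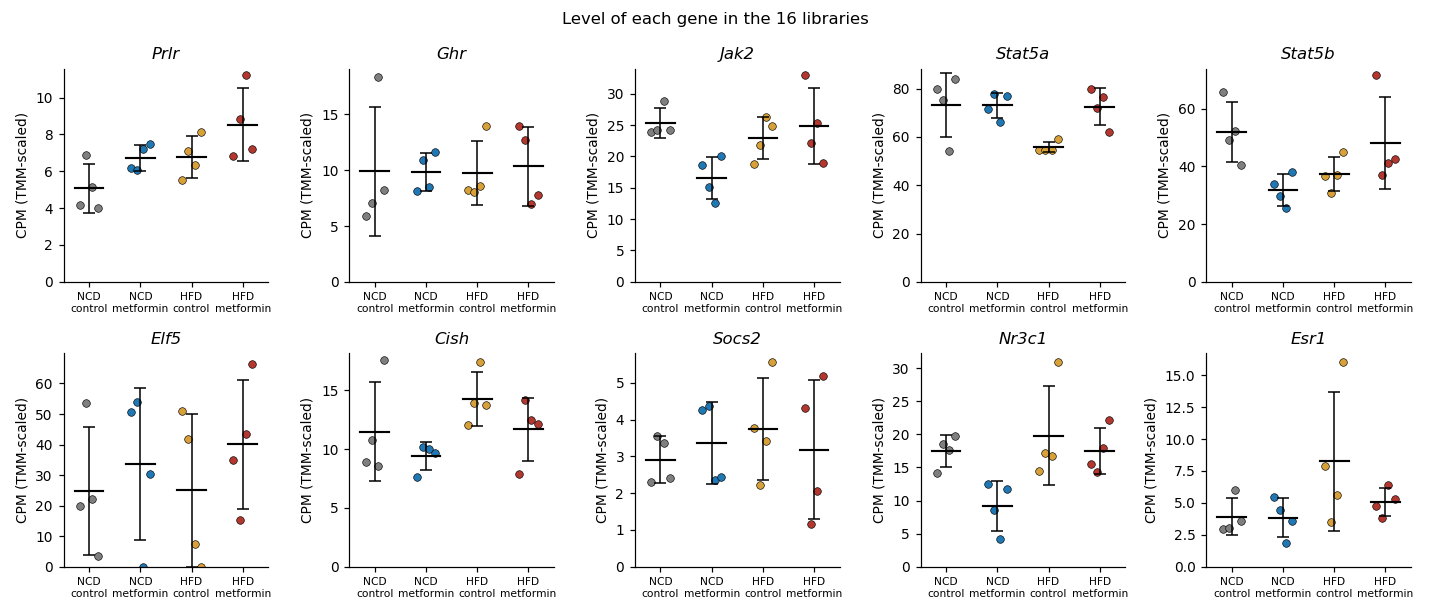
CPM (TMM-scaled, linear axis from 0) of the 10 genes in each of 16 libraries, by group, with points for libraries, a bar for the mean and whiskers for the SD (n = 4). The NCD metformin points of Jak2, Stat5b and Nr3c1 lie below all NCD control points, and Elf5 spans from 0 to 66.5 CPM.

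On NCD, metformin went with lower transcript levels of the kinase, of Stat5b and of the glucocorticoid receptor. Jak2, Stat5b and Nr3c1 were called lower, at 0.656, 0.613 and 0.529 times the control level, while Stat5a, at 0.996 times, was not called. None of the 10 was called higher. Over all genes tested, 10% were called in this comparison, 6.03% lower and 4.01% higher. Of the 10, 7 had negative log2 fold changes and their median was -0.02, beside a median of 0 over all genes. On HFD, edgeR called 0 of the 10, where 0.168% of all genes were called. There 1 of the 10, Stat5a, had an unadjusted p under 0.05, as had 12.8% of all genes, and DESeq2 called 0.

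Jak2 encodes the kinase bound to the prolactin and growth hormone receptors (ENSMUSG00000024789.13, chromosome 19, 29251828 to 29313080, GRCm38). Its level was 23.9, 24.2, 28.9 and 24.2 CPM in NCD controls 1 to 4. In NCD metformin it was 18.6, 15.1, 12.5 and 20 CPM. Every metformin library lay below every control, and in this comparison 18.6% of all genes had groups without overlap. The log2 fold change was -0.61 ± 0.17 (SE) with an edgeR adjusted p of 0.0358, and 4 of 4 libraries were below the control mean. On HFD the groups overlapped, with 18.8, 21.9, 26.3 and 24.8 CPM in controls and 33.0, 22.1, 25.3 and 18.9 CPM with metformin. The log2 fold change there was 0.11 ± 0.17 (edgeR adjusted p = 0.832).

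Stat5b is the STAT5 gene best known for growth hormone signalling (ENSMUSG00000020919.11, chromosome 11, 100780731 to 100850724). It measured 65.7, 49.3, 52.2 and 40.4 CPM in NCD controls 1 to 4 and 33.9, 29.7, 25.6 and 38.1 CPM in NCD metformin 1 to 4. The highest metformin library was below the lowest control. The log2 fold change was -0.71 ± 0.20 (edgeR adjusted p = 0.0364, lower in 4 of 4). On HFD the direction of the estimate was the other way. Controls had 36.8, 30.9, 36.9 and 44.9 CPM and metformin libraries 71.6, 37.0, 41.3 and 42.6 CPM, with a log2 fold change of 0.37 ± 0.20 (edgeR adjusted p = 0.471). HFD metformin 1 was far above the rest of its group. The interaction of diet and metformin, which asks whether the metformin effect differed between diets, was 1.07 ± 0.28 on the log2 scale. Its unadjusted p of 0.00154 ranked 48 of 12506 genes and the edgeR adjusted p was 0.334, so a difference between diets was not called.

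Stat5a, the STAT5 gene that milk production chiefly depends on, lies next to Stat5b on chromosome 11 (100859351 to 100885169, ENSMUSG00000004043.14). NCD controls had 79.9, 75.4, 54.2 and 84.1 CPM and NCD metformin libraries 71.6, 77.6, 66.4 and 76.8 CPM. These groups overlapped, with a log2 fold change of -0.01 ± 0.12. In HFD controls the level was 54.6, 54.8, 54.8 and 59.2 CPM, and with metformin on HFD it was 79.7, 71.9, 76.4 and 62.2 CPM. The latter groups did not overlap, which held for 6.65% of all genes in that comparison. The log2 fold change was 0.38 ± 0.12 with an unadjusted p of 0.00688 and an edgeR adjusted p of 0.205, so Stat5a was not called on HFD.

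The coding sequences of Stat5a and Stat5b share 90.7% of aligned bases. Of the 31-base words in Stat5a, 35.5% also occur in Stat5b, so reads can be shared between them and their separate values carry that uncertainty. Per kb of coding length, Stat5a was 1.02 to 2.05 times Stat5b in NCD controls and 1.99 to 2.57 times in NCD metformin. In HFD controls the ratio was 1.3 to 1.75 and in HFD metformin 1.10 to 1.91. The NCD metformin ratios were at the upper end, with NCD control 4 reaching into their range.

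Nr3c1 encodes the glucocorticoid receptor, which is needed with prolactin for milk gene transcription. It measured 14.2, 18.5, 17.6 and 19.7 CPM in NCD controls and 12.5, 8.56, 4.18 and 11.7 CPM in NCD metformin. NCD metformin 3 was the lowest of all 16 libraries, and the groups did not overlap. The log2 fold change was -0.92 ± 0.28 (edgeR adjusted p = 0.048, lower in 4 of 4). On HFD the values were 14.4, 17.2, 16.7 and 30.9 CPM in controls and 15.6, 14.3, 18 and 22.2 CPM with metformin. That difference was -0.15 ± 0.28 (edgeR adjusted p = 0.866).

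The NCD calls were close to the threshold. Leaving out NCD control 1, 2 or 3, or NCD metformin 2 or 3, left 0 of the 10 called. Over all genes, the calls fell from 1255 to 384, 564, 788, 180 and 511 in these runs, in that order. Without NCD control 1 the edgeR adjusted p was 0.0673 for Jak2, 0.112 for Stat5b and 0.0705 for Nr3c1, and without NCD metformin 2 it was 0.105, 0.103 and 0.128. Without NCD control 3 it was 0.0796, 0.0605 and 0.0775. Without NCD control 2 it was 0.0647, 0.0647 and 0.0965, and without NCD metformin 3 it was 0.0973, 0.098 and 0.0973. Without NCD control 4 only Stat5b was called (edgeR adjusted p = 0.0303), where 925 of all genes were called. The Nr3c1 call also missed the threshold without HFD control 2 or 3 (both 0.0585) or any HFD metformin library (0.0507 to 0.0574), and the Stat5b call without NCD metformin 1 (0.056). The signs did not change. Sample titles have a gap between numbers 10 and 14, and a term for that gap gave adjusted p-values of 0.052, 0.0533 and 0.0553. Within numbers up to 10 (2 metformin and 3 control libraries), mean CPM with and without metformin was 16.9 and 25.6 for Jak2, 31.8 and 55.7 for Stat5b, and 10.5 and 16.8 for Nr3c1. Within numbers from 14 (2 and 1), it was 16.3 and 24.2 for Jak2, 31.9 and 40.4 for Stat5b, and 7.96 and 19.7 for Nr3c1.

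Summed markers of other cell types were set beside these calls, without a test. The 10 macrophage and monocyte markers summed to 114 to 171 CPM in NCD control and 84.3 to 113 CPM in NCD metformin, without overlap. The 10 fibroblast markers summed to 343 to 356 and 221 to 352 CPM. The 13 luminal markers summed to 774 to 823 and 715 to 818 CPM, and the ranges of both lists overlapped. The 10 endothelial markers went from 71.3 to 97.3 CPM in NCD control to 86.1 to 146 CPM in NCD metformin, also with overlap. The 10 adipocyte markers summed to 427 to 1040 CPM in NCD metformin. In NCD control they summed to 1220 CPM in NCD control 3 and to 188 to 261 CPM in the others. None of the defining markers in these lists was at 0 in all libraries. The part of these cell types in the lower Jak2, Stat5b and Nr3c1 was not tested.

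**Figure D2:**
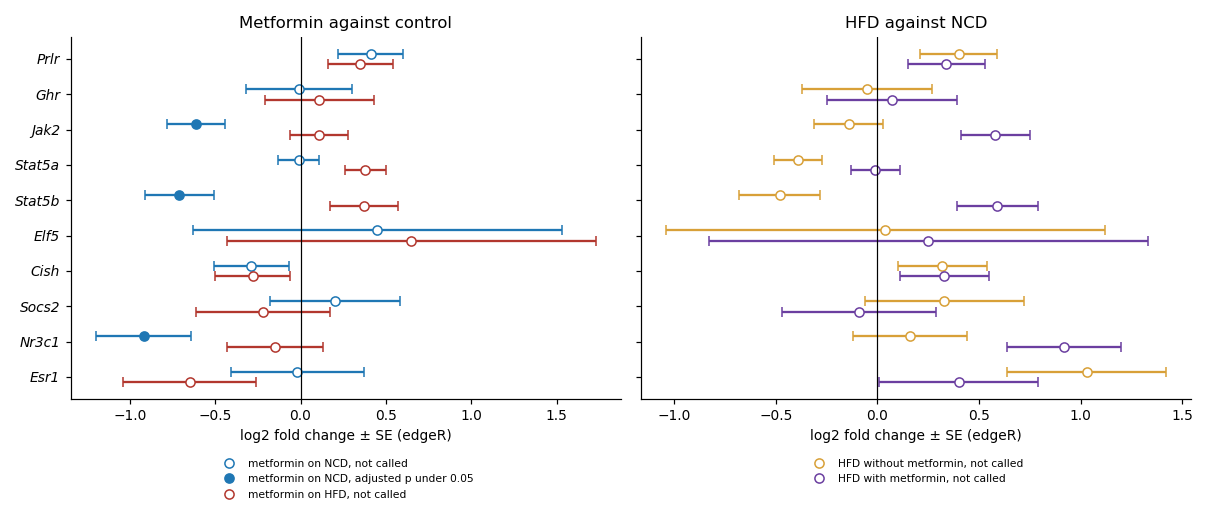
Log2 fold changes with SE from edgeR for the 10 genes, metformin against control on each diet (left) and HFD against NCD without and with metformin (right). Filled points passed an adjusted p under 0.05, and these were Jak2 at -0.61, Stat5b at -0.71 and Nr3c1 at -0.92 in metformin on NCD.

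Prlr, the prolactin receptor, had its lowest mean in NCD control and its highest in HFD metformin. NCD controls had 4.16, 6.90, 5.17 and 4.03 CPM and NCD metformin libraries 6.18, 6.05, 7.20 and 7.48 CPM. HFD controls had 5.52, 7.12, 6.33 and 8.15 CPM and HFD metformin libraries 6.85, 8.84, 11.2 and 7.20 CPM. All 8 metformin libraries lay above the mean of the 8 controls, although the ranges overlapped. Averaged over diets, the log2 fold change for metformin was 0.38 ± 0.13 (edgeR adjusted p = 0.069). The effect of HFD averaged over treatments was of like size, at 0.37 ± 0.13 (edgeR adjusted p = 0.167), and the interaction was -0.06 ± 0.27. Neither passed in edgeR, while DESeq2 gave an adjusted p of 0.0455 for metformin. Without NCD control 2, edgeR gave 0.034.

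Averaged over diets, 11.4% of all genes were called for metformin and 0 of these 10. Of the 10, 3 had an unadjusted p under 0.05 (Prlr, Stat5a and Nr3c1), a share near the 28.9% of all genes at that p. DESeq2 called 2, Prlr and Nr3c1, where it called 1912 of 12506 genes. For Nr3c1 the average was -0.54 ± 0.20 (edgeR adjusted p = 0.0847, lower in 7 of 8). Stat5a was at 0.19 ± 0.09 (edgeR adjusted p = 0.164).

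Ghr, the growth hormone receptor, is expressed strongly in fat and liver. Its level was 5.89, 7.03, 18.4 and 8.27 CPM in NCD controls 1 to 4 and 8.16, 10.9, 8.54 and 11.6 CPM in NCD metformin. On HFD it was 8.21, 8.08, 8.57 and 14 CPM in controls and 14, 12.7, 6.93 and 7.74 CPM with metformin. The highest library was NCD control 3, where adipocyte markers were also highest. In HFD metformin the first 2 libraries were high in both Ghr and adipocyte markers (641 and 704 CPM), and the other 2 low in both (266 and 290 CPM). Not every library followed this. NCD metformin 3 had 934 CPM of adipocyte markers with Ghr at 8.54 CPM, and HFD control 4 had 414 CPM with Ghr at 14 CPM. The part of fat cells in the Ghr level was not tested. The summed level did not pass in any contrast, with log2 fold changes between -0.05 and 0.11 for the 4 pairwise comparisons.

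The balance of the Ghr forms did differ with metformin. In mice, Ghr is known to give a membrane receptor and, by alternative splicing, a soluble binding protein. Here the gene's counts lay on Ghr-201, with 1953 coding bases, and Ghr-203, with 894. Ghr-203 made up 67.1, 65.1, 64.9 and 57.2% of the gene's TPM in NCD controls 1 to 4, and 67.5, 70.0, 80.6 and 75.5% in NCD metformin 1 to 4. On HFD it was 63.9, 63.5, 51.1 and 50.1% in controls and 63.2, 69.8, 72.9 and 65.1% with metformin. On NCD the groups did not overlap, and on HFD the lowest metformin library was below the 2 highest controls.

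Averaged over diets, the share of Ghr-203 was 70.6% with metformin and 60.4% in controls, a difference of 10.2 percentage points. An exact permutation test within diets (4900 permutations) gave p = 0.00163, or 0.0098 adjusted over the 6 members tested. These had more than 1 form at a mean of 1% or more of the gene's TPM, and a mean count of at least 10. The other 5 were not called, with adjusted p from 0.571 to 0.975 by the exact test. Only the form with the highest mean TPM was tested for each gene. For Stat5a and Socs2 these were short forms of 155 and 188 bases, with mean counts of 8.15 and 9.2. For Prlr it was Prlr-203. The forms that held most counts of Stat5a, Socs2 and Prlr were not tested. Adipocyte markers were higher in NCD metformin (427, 1040, 934 and 957 CPM) than in NCD controls 1, 2 and 4, while NCD control 3, at 1220 CPM, had a share of 64.9%. In HFD metformin 1 to 4 they were 641, 704, 266 and 290 CPM. The part of fat cells in the share was not tested. By estimated counts in place of TPM the difference was 10.5 points (adjusted exact p = 0.0122). Without HFD metformin 3 the difference was 9.33 points, with an adjusted exact p of 0.0539. For diet, the share was 62.5% on HFD and 68.5% on NCD, a difference of -6.03 points, with an exact permutation p of 0.0494 and an adjusted p of 0.296.

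In CPM, Ghr-203 averaged 3.61 ± 2.20 without and 4.67 ± 1.04 with metformin on NCD, and 2.89 ± 0.519 and 4.14 ± 1.23 on HFD (SD, n = 4). Ghr-201 averaged 6.28 ± 3.59 and 5.11 ± 1.12 on NCD, and 6.81 ± 2.56 and 6.21 ± 2.38 on HFD. Counts behind the gene were low, 125 to 579 in a library, and Salmon divides reads that fit both forms by a model.

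**Figure D3:**
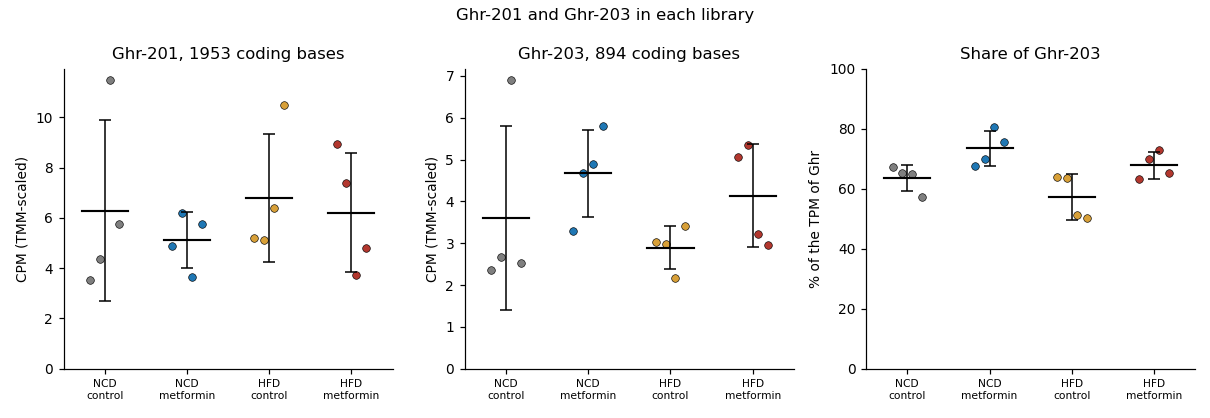
CPM of Ghr-201 and Ghr-203 and the share of Ghr-203 in the TPM of Ghr (%), by group, with points for libraries, a bar for the mean and whiskers for the SD (n = 4). The share averages 73.4% in NCD metformin against 63.6% in NCD control, and 67.7% against 57.2% on HFD.

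Of the other receptor forms, Prlr-202, the longest Prlr form listed (1827 coding bases), took 72.9 ± 9.10% of the Prlr counts over the 16 libraries (SD). Prlr-205 and Prlr-203, shorter coding forms of 933 and 555 bases, took 13.5 ± 6.85% and 12.5 ± 3.51%. By TPM, which divides by length, Prlr-202 held 39.5 ± 9.62%, Prlr-203 39.7 ± 7.28% and Prlr-205 19.1 ± 7.90%. Prlr-202 averaged 3.67 ± 1.16 CPM without and 5.17 ± 0.43 with metformin on NCD, and 4.35 ± 0.812 and 6.65 ± 1.53 on HFD (SD, n = 4). The Stat5a counts divided between Stat5a-201 (60.5 ± 3.02%) and Stat5a-203 (39.1 ± 3.07%), whose coding lengths are 2382 and 2394 bases.

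The feedback genes gave no call in any contrast. Cish, an SH2 protein induced by STAT5, had 8.86, 10.8, 8.57 and 17.6 CPM in NCD controls and 7.62, 10.2, 10 and 9.66 CPM in NCD metformin. On HFD it had 12, 13.9, 17.4 and 13.7 CPM in controls and 7.85, 14.2, 12.5 and 12.1 CPM with metformin. Its mean was lower with metformin on both diets, with an average log2 fold change of -0.28 ± 0.15 (edgeR adjusted p = 0.228, lower in 7 of 8), within the overlap of the groups. Socs2, which limits growth hormone signalling, ranged from 1.16 to 5.58 CPM over all libraries, and its metformin average was -0.01 ± 0.27 (edgeR adjusted p = 0.989).

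The measured level of Elf5 varied more within groups than between them. NCD controls had 20, 53.6, 22.2 and 3.34 CPM, NCD metformin 50.7, 54.0, 0 and 30.2, HFD controls 50.9, 41.7, 7.43 and 0, and HFD metformin 34.8, 15.4, 43.6 and 66.5. The 2 libraries with 0 counts were NCD metformin 3 and HFD control 4, where 3 counts would be 0.1087 and 0.3468 CPM. Their luminal markers summed to 747 and 787 CPM, inside the range of the other libraries. The value rests on a single listed form with 762 coding bases, and the 2 coding forms of the annotation that the files do not list have the same coding sequence. Transcripts without a match in the annotation are not counted for any gene, so the level of Elf5 as a gene is uncertain. The metformin average was 0.55 ± 0.77 on the log2 scale (edgeR adjusted p = 0.672).

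Esr1, oestrogen receptor alpha, had the lowest mean of the 10 per length over the 16 libraries, within 1 SD of Prlr, which was the lowest in HFD control. NCD controls had 2.97, 3.02, 6.03 and 3.61 CPM and HFD controls 7.91, 3.49, 5.6 and 16 CPM. With metformin the values were 5.45, 4.48, 1.86 and 3.61 CPM on NCD and 4.77, 3.83, 6.40 and 5.34 CPM on HFD. HFD control 4, the shallowest library, was the highest. The log2 fold change of HFD without metformin was 1.03 ± 0.39 (edgeR adjusted p = 0.611), and without HFD control 4 it was 0.54 (0.919).

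For the diet, edgeR called none of the 10. Without metformin, where 0.064% of all genes were called, 4 of the 10 had an unadjusted p under 0.05, namely Prlr (0.40 ± 0.19), Stat5a (-0.39 ± 0.12), Stat5b (-0.48 ± 0.20) and Esr1. Over all genes 7.04% had such a p, and DESeq2 called 0 of the 10. With metformin, where 2.36% of all genes were called, Jak2 (0.58 ± 0.17, adjusted p = 0.0792), Stat5b (0.59 ± 0.20, 0.113) and Nr3c1 (0.92 ± 0.28, 0.0875) had positive differences at an unadjusted p under 0.05, as had 19.2% of all genes in either direction. DESeq2 called 2 of them, Jak2 at 0.036 and Nr3c1 at 0.0267, where it called 744 of 12506 genes. This comparison shares the NCD metformin libraries with the metformin comparison on NCD, so the same low values enter both. Nr3c1 groups did not overlap here, as for 10.2% of all genes. Averaged over treatments, where 0.936% of genes were called, 4 of 10 had an unadjusted p under 0.05 (Prlr, Stat5a, Nr3c1 and Esr1), beside 17.4% of all genes, and DESeq2 called 0.

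For the interaction edgeR called 0% of genes and 0 of the 10. At an unadjusted p under 0.05 stood Jak2 (0.72 ± 0.24), Stat5a (0.38 ± 0.17) and Stat5b, each with the metformin effect more positive on HFD. Over all genes 9.94% had such a p. For the 3 members the edgeR adjusted p was 0.374, 0.48 and 0.334. DESeq2 also called 0 of the 10, with 0.08 for Stat5b.

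Levels per length ranged widely between the genes. In CPM per kb of coding length over all 16 libraries, Elf5 averaged 40.6 ± 28.5, Stat5a 28.7 ± 4.43, Stat5b 17.9 ± 5.26 and Cish 15.1 ± 4.00 (SD). Nr3c1 at 6.73 ± 2.48, Jak2 at 6.59 ± 1.49, Socs2 at 5.45 ± 2.04, Ghr at 5.08 ± 1.72, Prlr at 3.71 ± 0.965 and Esr1 at 2.93 ± 1.80 followed. The Elf5 level counts matched transcripts only, so its place in this order is uncertain. Only the steps from Stat5a to Stat5b and from Cish to Nr3c1 were wider than the spread of 1 SD on both sides. The 4 receptor genes had lower levels per kb than both STAT5 genes in each group mean.

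**Figure D4:**
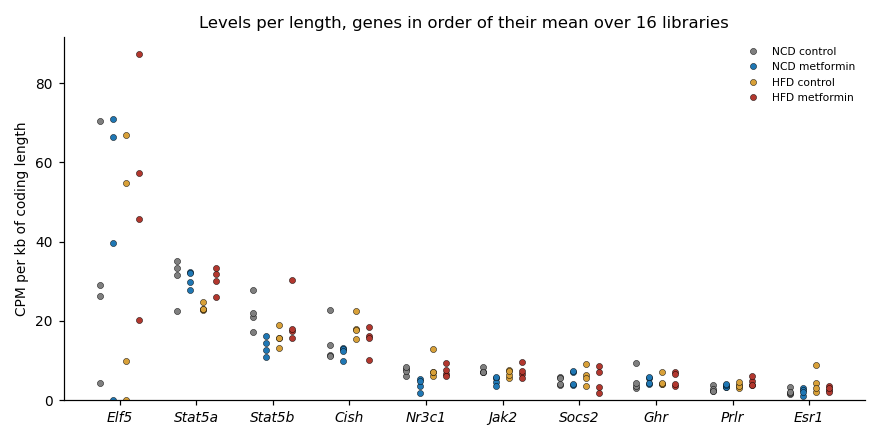
CPM per kb of coding length (linear axis from 0) for the 10 genes, ordered by the mean over 16 libraries, with a point per library coloured by group. Elf5, counted on matched transcripts only, has the highest mean (40.6) with values down to 0, and Prlr (3.71) and Esr1 (2.93) are the lowest.

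Around these genes, 9 lists of pathway genes were counted. With metformin on NCD, 21 of their 141 distinct tested genes were called, beside 10% of all genes. Over all genes 6.03% were called lower and 4.01% higher. On NCD, 3 of 14 cytokine receptor and JAK-STAT genes were called lower with metformin and none higher. These were Stat3 (95.9 to 55.5 CPM, log2 fold change -0.79 ± 0.17), Jak1 (101 to 59.3 CPM, -0.76 ± 0.16) and Lifr, a receptor chain of leukaemia inhibitory factor (-0.72 ± 0.15). The list median was -0.02 beside 0 over all genes. Of 17 negative regulators, Cbl, a ubiquitin ligase, and Socs4 were lower (-1.34 ± 0.31 and -1 ± 0.31). Of 19 STAT5 targets, Glycam1, a whey protein gene of the lactating gland, fell from 2730 to 1490 CPM (-0.88 ± 0.22, edgeR adjusted p = 0.0239). The list median on NCD was 0.07. On HFD the Glycam1 estimate was much the same, from 4920 to 2650 CPM (-0.89 ± 0.22, edgeR adjusted p = 0.114), but was not called. Averaged over diets, Glycam1 was called lower (-0.88 ± 0.15, edgeR adjusted p = 0.00383).

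Among the 15 growth hormone and IGF genes and the 19 other nuclear receptors, edgeR called none on NCD, where 2 and 5 of them, and 27.9% of all genes, had an unadjusted p under 0.05. Averaged over diets, Igf1, the growth factor induced by growth hormone, was lower (-0.53 ± 0.16, edgeR adjusted p = 0.0472), and so was Rxra, partner of many nuclear receptors (-0.32 ± 0.08, 0.0188). Of 17 cofactors and chaperones, 4 were called higher and 2 lower on NCD, beside 4.01% and 6.03% of all genes. Those called higher included Fkbp4 (0.58 ± 0.11), Hsp90aa1 (0.53 ± 0.14) and Stip1 (0.40 ± 0.10), which act in the chaperone cycle of steroid receptors. Other chaperones of that cycle, named after their values were seen, were not called, with Hsp90ab1 at 0.13, Ptges3 at -0.06 and Fkbp5 at -0.46 (edgeR adjusted p = 0.507, 0.725 and 0.474). Nrip1, a corepressor of nuclear receptors, fell from 26.4 to 4.48 CPM (-2.56 ± 0.44, edgeR adjusted p = 0.00743). The other gene called higher, Cited1 (1.09 ± 0.33), and the other called lower, Ncoa2 (-1 ± 0.28), are named after their values were seen.

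Genes known as glucocorticoid receptor targets had the lowest list median on NCD, at -0.82, with 3 of 15 called lower and 1 of 15 positive. All lists were chosen with earlier results of these data known, so this place among them is a description only. Over all genes 6.03% were called lower there. Dusp1, a phosphatase that damps MAP kinases, went from 130 to 30.4 CPM (-2.10 ± 0.38). Lcn2 was at -1.08 ± 0.29 and Angptl4 at -2.40 ± 0.60, while Klf9 was not called (-0.68 ± 0.25, edgeR adjusted p = 0.0851). On HFD the list median was 0.17, and edgeR called 0 of the 15, with 2 at an unadjusted p under 0.05. Of 23 luminal lineage factors, 6 were lower on NCD, among them the ETS factors Elf1 (-0.65 ± 0.12) and Ehf (-0.70 ± 0.16) and Grhl2 (-0.60 ± 0.16). Of 8 oestrogen receptor targets and partners edgeR called none, and 1 had an unadjusted p under 0.05. On HFD, edgeR called 0 genes with metformin in all 9 lists, where 19 of 141 distinct genes had an unadjusted p under 0.05, near the 12.8% over all genes.

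**Figure D5:**
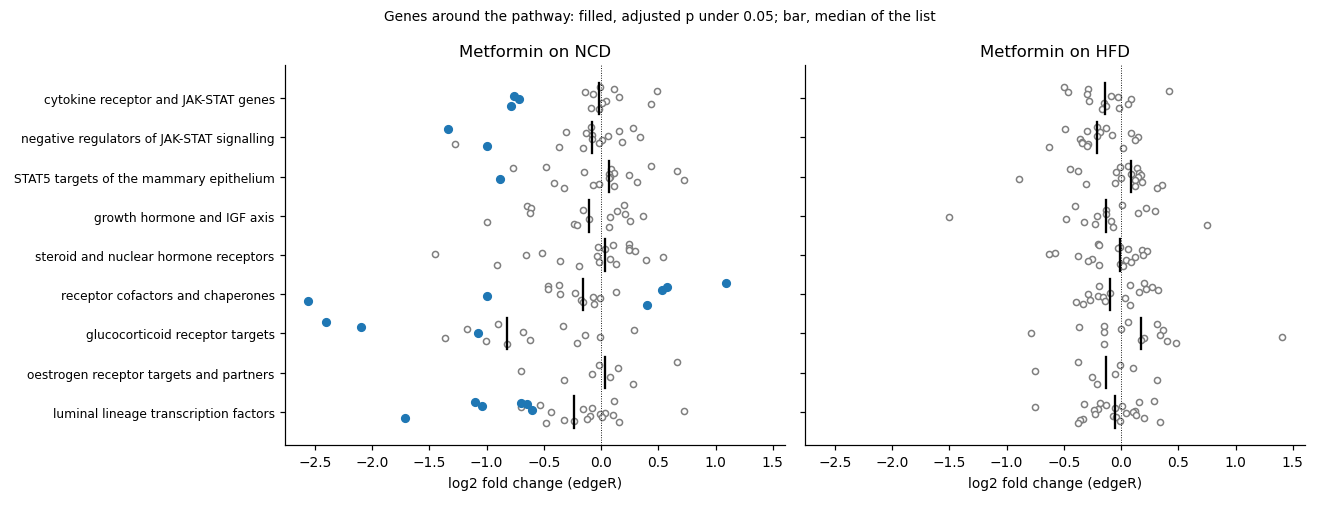
Log2 fold changes (edgeR) of the genes in 9 lists, chosen with earlier results known, for metformin on NCD (left) and on HFD (right). Filled points passed an adjusted p under 0.05 and bars are list medians, the lowest being -0.82 for glucocorticoid receptor targets on NCD, with no filled point on HFD.

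For the diet averaged over treatments, 3 of the 141 distinct genes in these lists were called, beside 0.936% of all genes. Lifr (0.51 ± 0.10) and Glycam1 (0.84 ± 0.15) were higher on HFD, and Wnt4, a paracrine signal downstream of progesterone and prolactin, was lower (-1.18 ± 0.26). Wnt4 was at 0.207 to 0.573 CPM in the group means, so few reads stand behind it.

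Each member was set beside 10452 genes by its correlation over the 16 libraries after group means were subtracted, a description of libraries that share depth and tissue makeup. The gene most like Prlr was Stard3nl (Pearson r = 0.85) and those most like Ghr were Abcd2 (0.96), Pde3b (0.95) and Gstz1 (0.95). Jak2 went with Zmym5 (0.89), Stat5a with Trmt10c (0.85) and Stat5b with Cnst (0.94). For Elf5, counted on matched transcripts only, they were Mrps16 (0.92) and the ribosomal protein genes Rpl11 and Rps23 (both 0.91). Cish was nearest Wdr1 (0.88), Socs2 Cytip (0.95), Nr3c1 Pdpr (0.97) and Esr1 Slc7a2 (0.87).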

How the data were processed

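RNA of 16 libraries (4 groups of 4) was quantified per transcript by the authors with Salmon, per the file headers. Salmon 1.3.0, DESeq2 1.28.1 and GRCm38.p6 are named per the submitters' processing notes. No strand or bias options were given in the sources used here. For each of 58204 transcripts the authors deposited an estimated count and a TPM value. Listed lengths were coding lengths, so untranslated regions are not measured.

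Summing 57452 transcripts by their GENCODE M21 gene gave estimated counts for 22196 genes, which were rounded. The other 752 transcripts had no match there and belong to no gene here. They held 0.165 to 0.218% of a library's counts. Small as a share, this is more than the counts of Elf5 in any library. The quasi-likelihood test of edgeR 4.0.16 (in R 4.3.3) was run after filterByExpr and TMM scaling, in a single fit with 4 group means and 7 contrasts. Adjusted p-values follow Benjamini and Hochberg over 12506 genes, and a gene with an adjusted p under 0.05 was called. All tests were two-sided. On simulated data for metformin averaged over diets (12379 genes), 59 of 100 genes changed 1.5-fold and 100 of 100 changed 3-fold were recovered, with 10 false calls. The simulation gave every gene the same dispersion, changed only the better counted genes and compared 8 libraries with 8. It does not give the recovery for 4 against 4 libraries or for more variable genes.

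CPM is scaled by TMM. Levels between genes are CPM per kb of the longest listed coding form, a measure chosen after the files were seen, because short listed fragments raise the TPM of a gene. Transcript shares were compared by an exact permutation test within the other factor, for the form of each gene with the highest mean TPM. Depth was 8649316 to 39156617 counts, so 3 counts, the limit that a count of 0 allows, are 0.077 to 0.347 CPM. This limit covers counting error only.

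The 10 genes and all lists were chosen with earlier results of these data known. Named genes are the 10 members and, of each list, up to 4 genes with the lowest p for metformin averaged over diets and up to 2 for HFD averaged over treatments. They include the 3 genes most correlated with each member and transcripts with at least 5% of a member's TPM. Alternatives were other scalings, filters and counts, DESeq2 1.42.0, a term for title numbers, and leaving out libraries. Replicates were numbered in accession order and pair nothing. Nothing in the labels says that the libraries of a group are separate animals, so the p-values cover only the spread among these libraries, technical or not.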

Additional observations from a re-analysis of the deposited data

Results flagged for a closer look

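Of 40 sets of 4 libraries (10 genes in 4 groups), 5 held a library far from the other 3 by Dixon's criterion, which chance exceeds in about 1 of 20 sets. HFD control 4, the shallowest library, was high for Ghr (14 CPM), Stat5a (59.2 CPM) and Nr3c1 (30.9 CPM). NCD control 3, high in muscle and fat markers, had the highest Jak2 of its group (28.9 CPM). HFD metformin 1, the next shallowest library, had 71.6 CPM of Stat5b. The effect of HFD on Stat5b had opposite signs, a log2 fold change of -0.48 ± 0.20 without metformin and 0.59 ± 0.20 with it, and every HFD library lay on the stated side of the NCD mean. The test of that difference, the interaction, had an edgeR adjusted p of 0.334.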

How the results depend on the processing

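For metformin on NCD, 3 of the 10 genes were called. With counts rebuilt from TPM 0 were, where 625 of 11113 genes were called. With the term for title numbers 0 were, where 1037 of 12506 genes were called. Leaving out 1 library gave 0 to 3, where 180 to 1461 of all genes were called. Without NCD control 3 and HFD control 4 together, an alternative chosen after seeing the data, 1 was (Nr3c1). In that run 1093 of 12560 genes were called. Jak2 and Stat5b passed in 18 of 27 alternatives each and Nr3c1 in 7, with log2 fold changes of -0.72 to -0.49, -0.82 to -0.57 and -1.09 to -0.67. For metformin averaged over diets, 0 became 2 with DESeq2, which called 1912 of 12506 genes. Leaving out 1 library there gave 0 to 1, where 711 to 1505 of all genes were called. For HFD with metformin, 0 became 2 with DESeq2, which called 744 of 12506 genes. For HFD averaged over treatments, 0 became 1 with library size only (Stat5a, -0.37, edgeR adjusted p = 0.0171). That scaling called 1595 of 12506 genes and moved the median of all genes by -0.17. The cause was not tested. The Ghr share call, 1, became 0 among title numbers from 14 alone (17.6 points, adjusted exact p = 0.10), where few permutations exist, and leaving out 1 library gave 0 to 1. Calls for metformin on HFD, HFD without metformin, the interaction and the diet share stayed at 0 in every alternative run. Of 22 fold changes with an unadjusted p under 0.05, 0 changed sign. Of the other 48, 25 did under some alternative, none larger than 0.34, and 0 passed. No paired analysis was possible because the labels give no replicate numbers shared between groups. Low counts limit Socs2, Esr1 and Prlr, with 36 to 319 counts in a library.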
